A study of Cricetiscus sungorus with 12 samples.

Results

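The respiratory chain of the inner mitochondrial membrane was followed here through 58 nuclear genes that encode subunits of complexes I to IV and the electron carrier cytochrome c. They are described out of the 17191 mouse GeneIDs measured in the hamster hypothalamus, from a list of 60 genes on which no record was found for Ndufb4. The 58 genes comprised 35 of complex I (6 core and 29 accessory subunits), 4 of complex II, 9 of complex III, 9 of complex IV and Cycs, the gene of somatic cytochrome c. Ndufa4 was counted with complex I after its name, although its protein is known to associate with complex IV. The members were chosen by gene identity, as known subunits, and although results of these data were known when the list was drawn up, it holds no threshold on a measured value.

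Hypothalamic mRNA was sequenced from 12 adult Djungarian hamsters, 4 in each of 3 groups, all sampled near ZT 4, which is 4 h after lights on. LP-NT hamsters remained in long photoperiod (16 h of light and 8 h of darkness) and were normothermic. SP-NT and SP-HT hamsters had adapted to short photoperiod (8 h of light and 16 h of darkness). SP-NT hamsters were normothermic, without torpor on the day of sampling, and SP-HT hamsters were hypothermic in spontaneous daily torpor. By the labels LP-NT and SP-NT each held 2 males and 2 females, and SP-HT 3 males and 1 female. According to the methods of the study, the animals came from an outbred colony, and body temperature transmitters were implanted under anaesthesia in the short photoperiod hamsters only, so that short photoperiod and implantation cannot be told apart.

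The respiratory chain passes electrons from NADH and succinate to oxygen and pumps protons, and the proton gradient drives ATP synthesis. Complex I oxidizes NADH, complex II oxidizes succinate, both reduce ubiquinone, complex III passes the electrons on to cytochrome c, and complex IV hands them to oxygen. Neurons obtain most of their ATP in this way. In daily torpor, whole-body metabolic rate and body temperature are strongly lowered for some hours.

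The summed expected counts were between 20204962 and 24186884 per hamster, with 22860132 to 24186884 in SP-NT against 20204962 to 23018126 in SP-HT. LP-NT replicate 01 stood apart from the other samples in the genes described here and, to a lesser degree, over all records, as given below. The record matched to Rbm3-ps, of a family known to be induced by cold, had 2.51 to 4.03 CPM (counts scaled to the size of the library) in the libraries labelled SP-HT and 13.3 to 16.6 in those labelled SP-NT, with a log2(FC) of -2.28 (edgeR adjusted p = 0.000214). LP-NT had 9.005 to 17.5 CPM and overlapped SP-NT only. The record was picked by the size of its torpor change in the study, with the sign left out. A large difference and a small p-value were thus set by that choice, and only the direction was left free. The direction goes against what the family is known for and against the sign that the study gives. Of the 389 genes with an adjusted p under 0.05 in edgeR for SP-HT against SP-NT, 82 were higher in SP-HT as labelled. The study tested with DESeq2, so its set of genes comes from another test, and it reports more genes higher than lower in torpor. The torpor directions below are therefore those of the libraries labelled SP-HT and SP-NT. At the same threshold against LP-NT, edgeR called 6 of 16199 genes for the libraries labelled SP-NT and 221 of 16157 for those labelled SP-HT. Whether the labels SP-HT and SP-NT were exchanged was not tested. With the labels exchanged, every torpor sign would turn and the comparisons of both groups with LP-NT would change places. SP-NT replicate 19, labelled male, had 0 counts in 2 records that reached at least 342 counts in each of the 6 other labelled males and at most 5 in the females. The tissue label was not checked against hypothalamic markers, since no table of gene names was used here.

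Transcripts of the chain were abundant. Levels between genes are given per length, as deposited TPM (transcript abundance scaled by length and library size). The 53 subunits with a mean of at least 50 counts per sample, called well-counted below, had a median of 202.3 TPM over the 12 samples, beside 31.3 TPM for the 12904 records that met the same minimum. The well-counted subunits of complex I had a median of 164.4 TPM, those of complex II 299.99 TPM, those of complex III 215.7 TPM and those of complex IV 302.0 TPM, and Cycs was at 378.1 TPM. Within complex I the core subunits, among them the carriers of the flavin and the iron-sulfur clusters, had a median of 195.9 TPM and the well-counted accessory subunits 144.9 TPM.

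Cox4i1 (GeneID 12857), which encodes the ubiquitous isoform of the largest nuclear-encoded subunit of complex IV, had the highest level in the set, with 1315 ± 72.2 TPM in SP-HT, 1183 ± 31.8 in SP-NT and 1325 ± 168 in LP-NT (SD, n = 4 each). Ndufa3 (GeneID 66091), an accessory subunit of complex I, followed with 585.5 TPM over all samples and was the highest in its complex. Its 3 groups overlapped in TPM. Uqcrc1 (GeneID 22273), a core protein of complex III on the matrix side, led its complex with 435.2 TPM, close to Uqcr11 at 435.2 TPM. Sdha (GeneID 66945), the flavoprotein subunit of complex II that oxidizes succinate, led its complex with 428.5 TPM. The lowest well-counted subunit of complex I was the core subunit Ndufs3 with 25.6 TPM, followed by the accessory Ndufa13 with 35.2 TPM. The lowest of the other complexes were Cyc1 (cytochrome c1) of complex III with 80.8 TPM, Sdhd of complex II with 80.9 TPM and Cox7b of complex IV with 94.3 TPM. Subunits of 1 complex thus differed widely in level per length, which rests on the effective length of each GeneID. Its mean ran from 304.1 to 4176 bases among the well-counted subunits and was 3656 for Cyc1 and 3141 for Sdhd. Cyc1 had a mean of 2426 counts per hamster, more than Uqcr10 of the same complex with 963.2. Uqcrc1 and Uqcr11, close in TPM, had 5940 and 1330 counts on 1662 and 372.6 bases. Ndufs3 held only 47 to 83 counts per hamster.

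**Figure D1:**
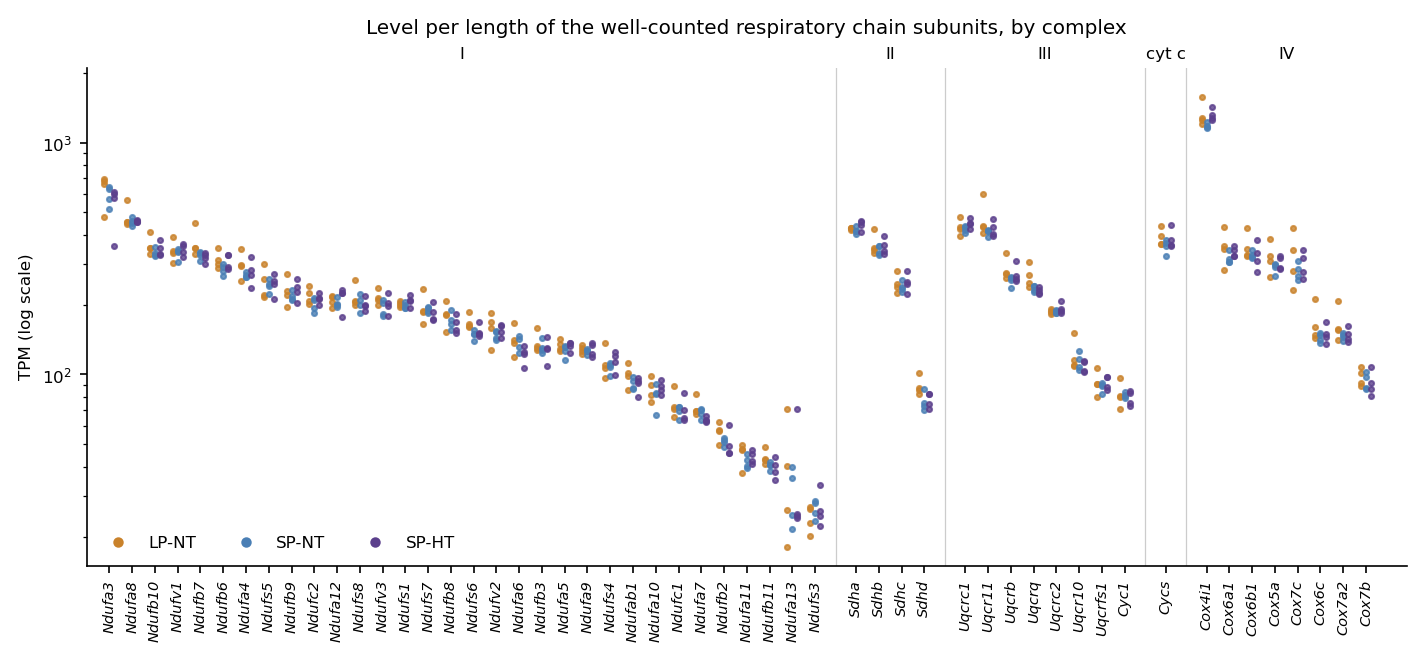
Level per length (TPM, log scale) of the 53 well-counted subunits in each of the 12 hamsters, ordered within complexes I to IV and cytochrome c (cyt c) by their mean, with 1 point per hamster coloured by group. Cox4i1 lies highest, with a mean of 1274 TPM, and Ndufs3 lowest, with 25.6 TPM, and for most subunits the points of the 3 groups lie among each other apart from a high LP-NT point.

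The records of 5 subunits were too sparse to compare groups. Ndufb5 had 18 to 41 counts per hamster, Ndufa2 6 to 19 and Ndufa1 1 to 7. Uqcrh had 15 counts in the 12 hamsters together, 7 of them in SP-NT replicate 38, and Cox5b had 18, on a mean effective length of 60.5 bases. All 5 encode constituents of the assembled complexes (3 accessory subunits of complex I, the hinge protein of complex III and a subunit of complex IV). Whether their transcripts were counted under another GeneID was not tested.

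LP-NT replicate 01 had the highest level of the 12 hamsters for 43 of the 53 well-counted subunits, 81.1%, beside 26.7% of all records with the same minimum count. By CPM from the total count alone it was the highest for 46 of them, beside 24.3% of all these records, and by TPM for 44, beside 16.9%. On each scale no other hamster was the highest for a larger share of all these records. With each subunit set relative to its own mean over the 12 samples, the mean log2 level was 0.34 in LP-NT replicate 01, and lay between -0.14 (LP-NT replicate 05) and 0.097 (SP-HT replicate 26) in the 11 other hamsters. The excess over the mean of the other 11 was positive for 52 of the 53 subunits, with a median of 0.37 on the log2 scale, and Ndufs3 was the exception at -0.066. By complex, the mean log2 level of this hamster was 0.32 for complex I, 0.25 for complex II, 0.34 for complex III, 0.31 for cytochrome c and 0.46 for complex IV. The remaining LP-NT hamsters lay within or below the range of the short photoperiod hamsters. Within a complex the excess over the mean of the other 11 was uneven. It ran from -0.066 (Ndufs3) to 1.2 (Ndufa13) in complex I and from 0.031 (Sdha) to 0.45 (Sdhd) in complex II. In complex III it ran from 0.12 (Uqcrc2) to 0.55 (Uqcr10), and in complex IV from 0.29 (Cox7b) to 0.70 (Cox7c). In the bulk tissue, more cells of a type and more RNA per cell cannot be told apart. A difference in RNA quality or library preparation was not tested.

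**Figure D2:**
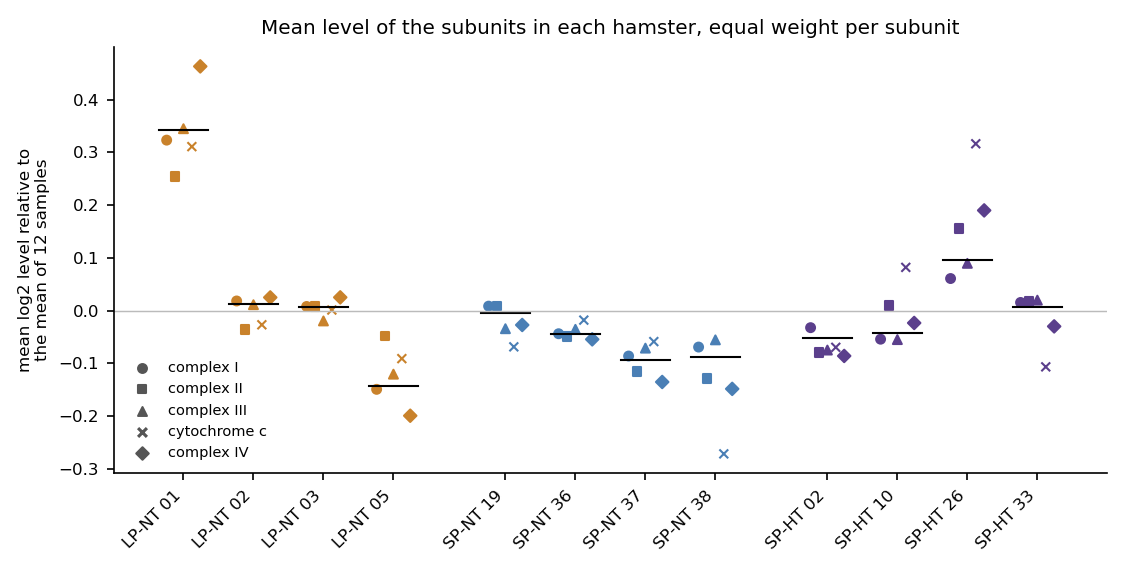
Mean log2 level of the well-counted subunits of each complex in each hamster, relative to the mean of the 12 samples, with a symbol per complex and a black line at the mean over the 53 subunits. LP-NT 01 lies at 0.34 with its complexes between 0.25 and 0.46, while the lines of the 11 other hamsters lie between -0.14 and 0.097.

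The counts of the subunits were then summed by complex. Over all 58 subunits the summed level was 5206 ± 294 CPM in SP-HT, 4897 ± 132 in SP-NT and 5323 ± 713 in LP-NT (SD, n = 4 each). Without LP-NT replicate 01, which had 6349 CPM, LP-NT had 4981 ± 249 CPM (SD, n = 3). With that hamster included, the spread over all subunits was widest in LP-NT. Complex I summed to 2468 ± 312, 2294 ± 60.7 and 2400 ± 99.9 CPM in LP-NT, SP-NT and SP-HT, and to 2319 ± 117 in LP-NT without that hamster. Complex II summed to 633.4 ± 45.2, 593.4 ± 17.2 and 636.4 ± 37.2 CPM in the same order. Complex III summed to 970.9 ± 124, 913.3 ± 17.4 and 963.3 ± 57.2 CPM, and complex IV to 1045 ± 206, 912.0 ± 35.2 and 998.7 ± 77.2 CPM. Without LP-NT replicate 01, LP-NT had 611.3 ± 11.4 CPM for complex II, 911.1 ± 41.1 for complex III and 946.6 ± 75.8 for complex IV (SD, n = 3). The LP-NT sum then lay below that of SP-HT in every complex, and for complex III it also lay below that of SP-NT. The groups overlapped in the summed level of every complex, and these sums, which the most abundant subunits dominate, were not tested.

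Photoperiod was addressed at normal body temperature by comparing SP-NT with LP-NT. None of these subunits passed the threshold. Of the 58 subunits tested, 0 had an adjusted p under 0.05 in edgeR, where 0.037% of all 16199 genes did, and 0 did so in DESeq2 (0.204% of all genes) or limma (0.0432%). An unadjusted p under 0.05 was reached by 2 of them, Ndufs6 and Sdhd, beside 4.84% of all genes. The log2(FC) was below 0 for 54 of the 58 (51 of the 53 well-counted), beside 50.8% of all genes. The median was -0.13 (all genes -0.0024). The size of this shift depended on single LP-NT hamsters. Without LP-NT replicate 01 the median was -0.023, with 21 subunits above and 37 below 0, and 0 with an unadjusted p under 0.05. Without LP-NT replicate 05, which had the lowest mean log2 level, the median was -0.17.

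By complex, the median log2(FC) for photoperiod was -0.11 in complex I (32 of 35 below 0), -0.092 in complex II (4 of 4), -0.093 in complex III (8 of 9) and -0.20 in complex IV (9 of 9). These counts include the sparse subunits, with Uqcrh above 0 in complex III and Cox5b below 0 in complex IV. Without LP-NT replicate 01 the 4 medians were -0.020, -0.019, 0.010 and -0.058. The 95% interval of the log2(FC) lay within a 1.5-fold difference in either direction for 52 of the 58 subunits, so that for these a larger difference was outside the interval of the fit. The 6 others were Ndufa1, Ndufa2, Uqcrh and Cox5b, with few counts, and Ndufa13 and Cox7c, with a wide spread between hamsters.

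Sdhd (GeneID 66925) encodes a membrane anchor of complex II. It had 122.4, 96.0, 97.0 and 92.6 CPM in LP-NT replicates 01, 02, 03 and 05, and 98.4, 82.9, 84.3 and 78.3 CPM in SP-NT replicates 19, 36, 37 and 38. The groups overlapped through SP-NT replicate 19, and the log2(FC) was -0.25 (standard error 0.0999, edgeR adjusted p = 0.913). It was -0.15 without LP-NT replicate 01. Ndufs6, an accessory subunit of complex I that binds zinc, was the only subunit without overlap between the groups, beside 1.72% of all genes in the same direction. It had 37.3 to 46.9 CPM in LP-NT and 32.5 to 36.8 CPM in SP-NT (log2(FC) -0.21, edgeR adjusted p = 0.913, and -0.13 without LP-NT replicate 01).

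The other well-counted subunits with the largest photoperiod differences in their complex also drew on LP-NT replicate 01. Cox6c, a small subunit around the catalytic core of complex IV, had 140.9, 98.5, 92.0 and 88.6 CPM in LP-NT and 88.7, 93.8, 81.8 and 90.9 CPM in SP-NT. The difference rested on the value of 140.9 in LP-NT replicate 01, and the log2(FC) of -0.24 was -0.068 without it. Uqcrb of complex III, which binds near the ubiquinone site, had a log2(FC) of -0.20 (standard error 0.0965, edgeR adjusted p = 0.913) and -0.088 without the same hamster. Sdhb, the iron-sulfur subunit of complex II, had 130.4, 101.1, 101.4 and 97.2 CPM in LP-NT and 94.97 to 106.3 CPM in SP-NT, and its log2(FC) of -0.10 changed to 0.0054 without the same hamster. Ndufa13 of complex I varied most within the groups, from 6.07 to 24.7 CPM in LP-NT and from 7.91 to 13.3 in SP-NT.

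Torpor was addressed in short photoperiod by comparing SP-HT with SP-NT. Of the 58 subunits, 0 passed the threshold in edgeR, where 2.4% of all 16195 genes did, and 0 in limma (2.57% of all genes), while DESeq2 (6.28%) called 1, Cox4i1. Small positive differences predominated, with a median of 0.080 (all genes -0.0027). The log2(FC) was above 0 for 48 of the 58 subunits (45 of the 53 well-counted), beside 49.4% of all genes. If the labels SP-HT and SP-NT were exchanged, 10 of the 58 would lie above 0, with a median of -0.080. An unadjusted p under 0.05 was reached by 8 of the 58, beside 18.4% of all genes. The 95% interval lay within a 1.5-fold difference for 52 of the 58. The median was 0.044 without SP-HT replicate 26, which carried the highest summed level of its group, 5624 CPM, and between 0.065 and 0.095 without any other hamster. By CPM from the total count alone, the summed level was 4900, 4929, 5402 and 5197 in SP-HT replicates 02, 10, 26 and 33. It was 5136, 4987, 4853 and 4898 in SP-NT replicates 19, 36, 37 and 38. On that scale SP-HT replicate 10 lay below SP-NT replicates 19 and 36, and with TMM above both. The gap between the groups thus depended in part on the scaling.

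**Figure D3:**
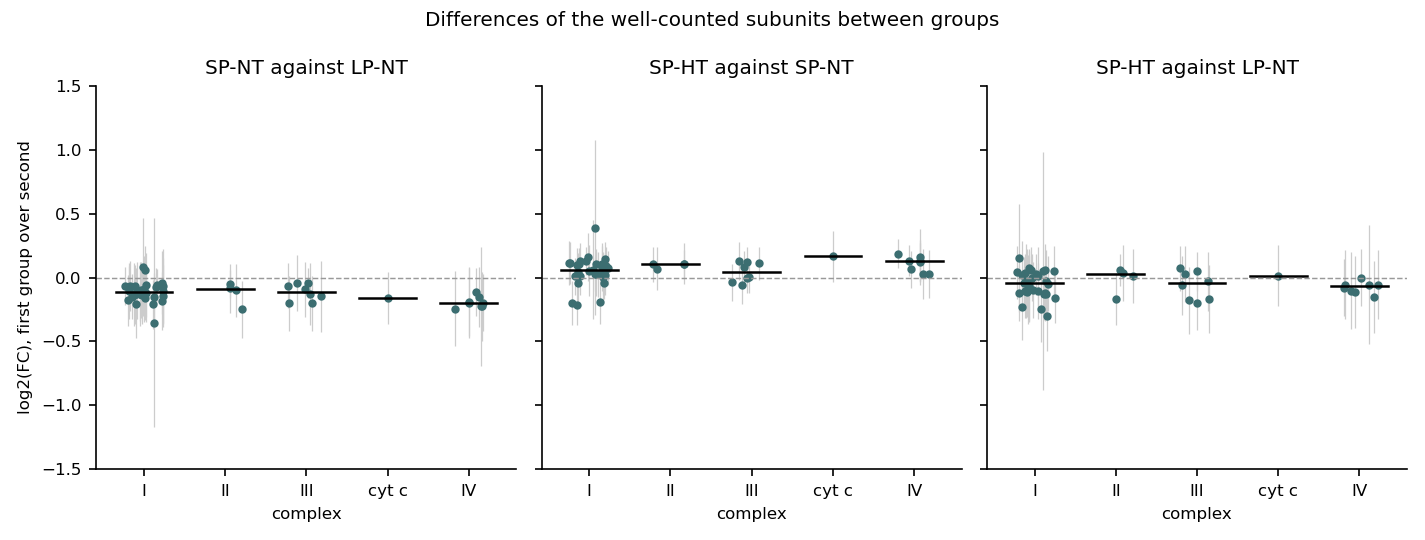
log2(FC) of the well-counted subunits in the 3 comparisons, by complex, with 95% intervals of the edgeR fit as grey lines and the median of each complex as a black line. Values lie mostly below 0 for SP-NT against LP-NT and mostly above 0 for SP-HT against SP-NT as labelled, and nearly all are smaller than 0.3 in size.

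In complex I, the 6 core subunits all had a log2(FC) of at least 0.0066 for torpor, with a median of 0.083. Ndufs1, the largest iron-sulfur subunit, had 322.1 ± 20.3 CPM in SP-HT and 294.2 ± 5.74 in SP-NT (SD, n = 4 each; log2(FC) 0.13, edgeR adjusted p = 0.209). The 29 accessory subunits had a median of 0.055, with 23 above 0, and both the largest positive and the largest negative differences among well-counted subunits were found here. Ndufa13 had 10.2, 9.79, 9.96 and 25.2 CPM in SP-HT and 7.91 to 13.3 in SP-NT, so that its log2(FC) of 0.39 rested on SP-HT replicate 33 and was -0.071 without it.

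Ndufa3, Ndufa6 and Ndufv3 stood on the opposite side, and this trio was singled out after its values were seen. Ndufa3 had 61.8, 64.9, 64.8 and 52.7 CPM in SP-HT and 74.9, 67.5, 69.1 and 72.3 CPM in SP-NT. Every SP-HT value lay below every SP-NT value, but the log2(FC) of -0.22 did not pass the threshold (standard error 0.0703, edgeR adjusted p = 0.130). It was -0.0999 with the effective lengths as an offset. Ndufa6, which belongs to the LYR family of small proteins that hold the mitochondrial acyl carrier protein, had 28.3 to 35.2 CPM in SP-HT and 34.4 to 39.1 in SP-NT (log2(FC) -0.20, edgeR adjusted p = 0.215, and -0.12 with the length offset). Ndufv3, a small subunit of the NADH-oxidizing module, had a log2(FC) of -0.19 (edgeR adjusted p = 0.232). Its effective length ranged from 554.3 to 942.4 bases between hamsters, and its log2(FC) turned to 0.10 with the effective lengths as an offset. Groups without overlap were found for 2 subunits that were higher in SP-HT (Uqcrb and Cox4i1), beside 4.74% of all genes, and for 2 that were lower (Ndufa3 and Ndufb5), beside 7.39% of all genes.

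In complex II all 4 subunits had a log2(FC) between 0.070 and 0.11 for torpor, none past the threshold. Sdha had 318.6, 356.6, 356.5 and 345.6 CPM in SP-HT and 305.2, 339.0, 320.0 and 316.8 in SP-NT, and the groups overlapped (log2(FC) 0.10, edgeR adjusted p = 0.313). Sdhc, the other membrane anchor, had 93.7 ± 9.88 CPM in SP-HT and 86.8 ± 4.70 in SP-NT (SD, n = 4 each; log2(FC) 0.11, edgeR adjusted p = 0.464, and 0.042 without SP-HT replicate 26). Complex III was divided, with 5 of 9 above 0 and the sparse Uqcrh below 0. Uqcrc1 had 275.6 ± 15.4 CPM in SP-HT and 252.7 ± 11.1 in SP-NT (SD, n = 4 each; log2(FC) 0.12, edgeR adjusted p = 0.238). Uqcrb had 87.6, 86.4, 104.5 and 85.5 CPM in SP-HT and 85.4, 82.9, 78.8 and 85.2 CPM in SP-NT. The groups were apart by a narrow margin, and SP-HT replicate 26 was the highest (log2(FC) 0.13, edgeR adjusted p = 0.337, and 0.057 without that hamster). Uqcrq, a small subunit beside cytochrome b, had 48.4 ± 1.67 and 48.5 ± 1.07 CPM (log2(FC) -0.0043, 95% interval from -0.12 to 0.11).

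Cycs (GeneID 13063) had 188.9, 209.9, 246.9 and 184.1 CPM in SP-HT and 189.1, 195.8, 190.4 and 164.3 CPM in SP-NT. The groups overlapped (log2(FC) 0.16, standard error 0.0905, edgeR adjusted p = 0.360), and the value was highest in SP-HT replicate 26 and lowest in SP-NT replicate 38. Without SP-HT replicate 26 the log2(FC) was 0.070.

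In complex IV all 9 subunits, the sparse Cox5b included, had a log2(FC) above 0 for torpor, with a median of 0.13. None was called by edgeR. Cox4i1 had 302.6, 319.2, 348.1 and 312.4 CPM in SP-HT and 284.3, 292.1, 277.0 and 271.6 CPM in SP-NT. The lowest SP-HT value exceeded the highest SP-NT value. Its log2(FC) of 0.19 (standard error 0.0508, 95% interval from 0.075 to 0.30) missed the threshold in edgeR (adjusted p = 0.0828) and passed it in DESeq2 (adjusted p = 0.0126). In LP-NT, Cox4i1 had 402.7 CPM in replicate 01 and 281.6 to 306.1 CPM in the other hamsters, a range that spanned part of both short photoperiod groups.

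**Figure D4:**
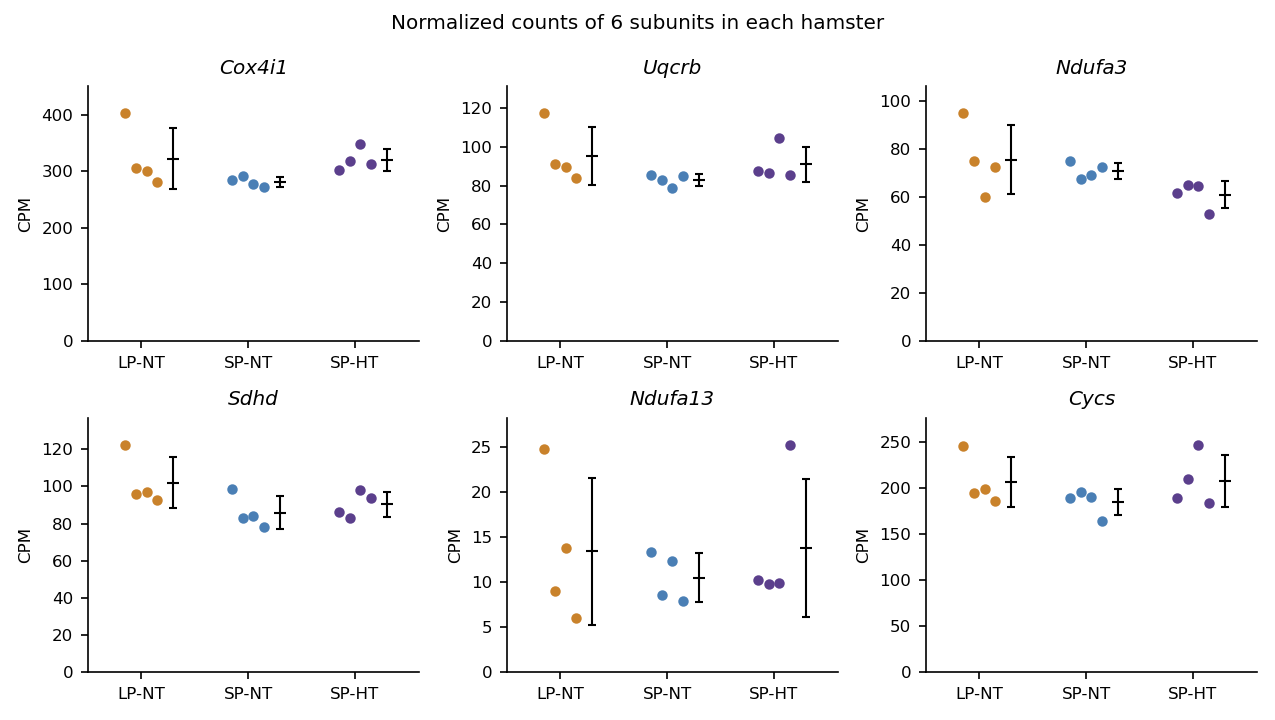
Normalized counts (CPM) of Cox4i1, Uqcrb, Ndufa3, Sdhd, Ndufa13 and Cycs in each hamster, 1 point per hamster in the order of the replicate numbers, with the mean and SD of each group of 4 beside the points and axes from 0. Cox4i1 and Uqcrb lie higher and Ndufa3 lower in SP-HT than in SP-NT without overlap, LP-NT 01 is the highest LP-NT point in every panel, and the high Ndufa13 point of SP-HT is replicate 33 with 25.2 CPM.

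Hamsters in winter torpor were set beside summer hamsters by comparing SP-HT with LP-NT, which shares its samples with the comparisons above. Of 57 subunits tested, Uqcrh having too few counts, 0 passed the threshold in edgeR, where 1.37% of all 16157 genes did. DESeq2 (4.37% of all genes) and limma (2.57%) also called 0, and 1, Ndufa3, had an unadjusted p under 0.05 in edgeR, beside 15.1% of all genes. The log2(FC) was above 0 for 21 of the 57 (18 of the 53 well-counted), beside 49.8% of all genes, and the median was -0.047. Without LP-NT replicate 01 it was above 0 for 39 of the 57, with a median of 0.066, so the side on which most subunits lay depended on that hamster. No subunit was higher in SP-HT without overlap of the groups, beside 3.81% of all genes, and the sparse Ndufb5 was the only 1 lower without overlap, beside 6.83% of all genes.

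Ndufa3 had a log2(FC) of -0.30 (standard error 0.123, edgeR adjusted p = 0.275) in SP-HT against LP-NT, with 60.2 to 94.9 CPM in LP-NT, so that the groups overlapped. It was -0.18 without LP-NT replicate 01. Cox4i1 had 320.6 ± 19.6 CPM in SP-HT and 322.6 ± 54.4 in LP-NT (SD, n = 4 each; log2(FC) -0.0012, and 0.12 without LP-NT replicate 01).

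By complex the medians of this comparison were -0.044 in complex I, 0.024 in complex II, -0.046 in complex III and -0.055 in complex IV, and 0.061, 0.089, 0.065 and 0.067 without LP-NT replicate 01. The largest differences in complex III among well-counted subunits were those of Uqcrq (log2(FC) -0.20, edgeR adjusted p = 0.377) and Uqcr11 (log2(FC) -0.18, edgeR adjusted p = 0.536), which were -0.096 and -0.046 without LP-NT replicate 01. In complex II they were those of Sdhd (log2(FC) -0.17, edgeR adjusted p = 0.435) and Sdha (log2(FC) 0.060, edgeR adjusted p = 0.675), in opposite directions. Sdhd was -0.074 without LP-NT replicate 01, and Sdha 0.10 without SP-HT replicate 02. In complex IV, Cox7a2 had a log2(FC) of -0.15, with 110.9 CPM in LP-NT replicate 01, 70.0 to 78.9 in the other LP-NT hamsters and 69.7 to 84.6 in SP-HT. Without LP-NT replicate 01 its log2(FC) was -1.1e-06. For Cycs the log2(FC) was 0.016 with a 95% interval from -0.22 to 0.25.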

How the data were processed

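Hypothalamic mRNA of 12 hamsters was sequenced by the authors as paired reads, 1 directional library per hamster. Per the labels and the methods of the study, reads were checked with FastQC 0.11.9, trimmed with Trim Galore 0.6.6 and pooled into a de novo Trinity assembly. Transcripts were assigned by blastx to their best mouse protein and joined by its GeneID, and the reads of each hamster were quantified with Bowtie 1.3.0 and RSEM 1.3.1. A GeneID can therefore join isoforms and paralogs, and no hamster gene model or strand setting was checked here. The deposited files hold expected counts from RSEM without normalization, TPM, which the authors' RSEM run scaled by length and library size, and an effective length in bases, which can differ between samples of 1 GeneID.

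Expected counts were rounded. For each comparison, GeneIDs whose counts over its 8 samples reached 10 in all entered edgeR 4.0.16 (TMM, quasi-likelihood test, no covariates, R 4.3.3), and p-values were adjusted by Benjamini-Hochberg over all genes tested, with a threshold of 0.05. The first group named is the numerator of a log2(FC). CPM used TMM factors over all 12 samples, and log2 levels a prior count of 2. DESeq2 1.42.0, with and without effective lengths, and limma 3.58.1 (voom, weights for sample quality) were alternatives, as were other scaling, filters, sex as labelled, all 12 samples in 1 fit, a length offset, and leaving out each hamster. The scripts were tested on simulated data. Subunits named were those past the threshold, the 2 with the largest log2(FC) in each complex and comparison, and those with the highest and lowest TPM in each complex. Further subunits, the minimum mean of 50 counts and the analysis of LP-NT replicate 01 were chosen after seeing the data. Of the listed subunits found, 1 is not reported here and enters no count, median, sum or range given. The members and lists were chosen with earlier results of these data known. The name Rbm3-ps rests on the size of its torpor change in a table of the study, which gives it with the opposite sign. Mitochondrially encoded subunits, ATP synthase, assembly factors and cell type markers were not analysed here, because the files pair no names with GeneIDs. Each hamster gave 1 library, so p-values set a group difference against the spread between libraries. That spread holds variation between hamsters together with that of dissection and library preparation.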

Additional observations from a re-analysis of the deposited data

Results flagged for a closer look

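Each of 72 groups of 4 values was checked for a hamster far from the others (Dixon's criterion at 95%), and 5 were found. Independent groups would meet this by chance in about 1 of 20. The groups here share the same hamsters and are not independent, so the count cannot be weighed against that rate. In LP-NT, replicate 01 was far above the others for Sdhb (130.4 CPM against 97.2 to 101.4) and for Sdhd (122.4 CPM against 92.6 to 97.0). In SP-NT, replicate 38 had 0.282 CPM of Uqcrh against 0.0416 to 0.0821, on 7 counts. In SP-HT, replicate 33 had 25.2 CPM of Ndufa13 against 9.79 to 10.2, and replicate 26 had 104.5 CPM of Uqcrb against 85.5 to 87.6.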

How the results depend on the processing

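The count of subunits past the threshold for photoperiod was 0 under every alternative run. For torpor, DESeq2 called 1, Cox4i1, with and without effective lengths (log2(FC) 0.20 in both, adjusted p = 0.0357 and 0.0126), and the other alternatives called 0. For SP-HT against LP-NT, every alternative run called 0. The median log2(FC) of the subunits stayed below 0 for photoperiod (-0.17 to -0.023 without single hamsters, -0.045 in limma) and above 0 for torpor (0.044 to 0.095 without single hamsters), and for SP-HT against LP-NT it turned to 0.019 in limma and 0.066 without LP-NT replicate 01. Signs turned for Ndufv3 in torpor (0.10 in DESeq2 with lengths and 0.098 with a length offset) and Cycs in SP-HT against LP-NT (-0.032 with sex, -0.0050 with a length offset, -0.077 to 0.11 without single hamsters). Without single hamsters, signs also turned for Ndufa13 in photoperiod (-0.59 to 0.12) and torpor (-0.071 to 0.53) and for Sdhb in photoperiod (-0.15 to 0.0054). Values close to 0 took either sign: for Uqcrq in torpor 0.0051 in DESeq2, 0.013 in DESeq2 with lengths, 0.0052 with size factors, 0.0058 with a length offset and -0.028 to 0.013 without single hamsters, and for Cox4i1 in SP-HT against LP-NT 0.0051, 0.0067, 0.0051 and 0.0011 under the same settings, 0.077 in limma, 0.0058 without a filter, 0.0053 with filterByExpr and -0.059 to 0.12 without single hamsters. The causes were not tested. The log2 differences of the summed levels moved by less than the spread between hamsters under every alternative run, but without single hamsters their signs turned for complex III in photoperiod (-0.13 to 0.0042) and, in SP-HT against LP-NT, for complexes I (-0.089 to 0.050), II (-0.026 to 0.056), III (-0.058 to 0.079) and IV (-0.14 to 0.077) and for cytochrome c (-0.080 to 0.094). No paired analysis was possible because the labels number each hamster separately, and replicate 02 of LP-NT and of SP-HT are different animals. Depth limited Ndufa1, Ndufa2, Ndufb5, Uqcrh and Cox5b, which had means under 50 counts.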
